A study of Mus musculus with 18 samples.

Results

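The 8 genes of sugar digestion and fructose handling at the brush border of the small intestine described here were followed in mouse ileum. They were chosen by name, as the probe sets whose platform gene symbol is exactly Sis, Mgam, Lct, Treh, Slc5a1, Slc2a5, Slc2a2 or Khk. Each of the 8 genes had 1 probe set, and all 8 were measured, among 22180 genes tested. No filter on low values was applied, so none of the 8 was dropped.

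Expression was measured with whole-transcript arrays, 1 per mouse, in the ileum of 18 mice on day 21 after an allogeneic bone marrow transplant. All recipients were B10.BR mice of 8 to 12 weeks that had received 11 Gy of total body irradiation and 5000000 T cell-depleted marrow cells from C57Bl/6 donors. T cell mice also received 2000000 purified T cells of the same donor strain and develop graft-versus-host disease (GvHD), in which grafted T cells attack the host, and marrow-only mice received none. Both arms were gavaged daily from the day before transplant with indole-3-carboxaldehyde (ICA, 150 mg/kg), a tryptophan-derived indole that binds the aryl hydrocarbon receptor, or with its vehicle (20% DMSO, 40% PEG400 and 2% citric acid). The 4 groups were T cells with ICA (5 mice), T cells with vehicle (4 mice), marrow only with ICA (5 mice) and marrow only with vehicle (4 mice). Irradiation, marrow and gavage were thus shared by all 18 mice, and no unirradiated or ungrafted ileum enters the comparisons. The ileal label was matched by Fabp6 (the ileal bile acid-binding protein), with log2 values of 11.81 to 12.71, and by Slc10a2 (the ileal bile acid transporter), with 10.27 to 11.08 over the 18 arrays.

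Dietary disaccharides and starch fragments are split by enzymes anchored in the apical membrane of enterocytes, and the sugars released are carried into the cell by transporters of the same membrane. Sucrase-isomaltase (Sis) and maltase-glucoamylase (Mgam) split sucrose and the products of starch digestion, lactase (Lct) splits milk sugar and declines after weaning, and trehalase (Treh) splits trehalose. Glucose and galactose enter with sodium through SGLT1 (Slc5a1), fructose enters through GLUT5 (Slc2a5), both can leave through GLUT2 (Slc2a2), and ketohexokinase (Khk) phosphorylates fructose inside the cell.

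The promoters of 5 of the genes are shown because Sis and Slc2a5 were called between the graft arms in the results below, Treh and Khk were called there when 1 mouse was left out, and Lct stood apart in that mouse. All 8 genes matched a RefSeq entry (GRCm38.p6). Each window runs 5′ to 3′ on the gene's own strand, from 250 bases before to 50 bases after its start. Capitals mark matches on either strand to 4 short motifs of factors known at intestinal or metabolic promoters. These are GTTAAT (bound by HNF1), TTTAT (CDX), GATAA (GATA factors) and CACGTG (an E-box, bound by clock and carbohydrate-response factors).
Sis (chr3:72967814-72968113, minus strand): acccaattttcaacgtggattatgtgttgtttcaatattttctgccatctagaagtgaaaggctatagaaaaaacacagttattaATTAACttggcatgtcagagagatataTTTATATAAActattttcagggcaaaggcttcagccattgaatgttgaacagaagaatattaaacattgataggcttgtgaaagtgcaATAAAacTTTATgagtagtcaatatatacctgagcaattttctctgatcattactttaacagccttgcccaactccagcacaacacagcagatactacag
Treh (chr9:44672983-44673282, plus strand): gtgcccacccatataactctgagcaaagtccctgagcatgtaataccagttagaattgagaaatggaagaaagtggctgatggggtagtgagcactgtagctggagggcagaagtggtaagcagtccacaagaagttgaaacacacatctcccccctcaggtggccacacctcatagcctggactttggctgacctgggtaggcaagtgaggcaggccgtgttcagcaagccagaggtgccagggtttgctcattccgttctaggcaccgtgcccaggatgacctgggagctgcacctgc
Slc2a5 (chr4:150119094-150119393, plus strand): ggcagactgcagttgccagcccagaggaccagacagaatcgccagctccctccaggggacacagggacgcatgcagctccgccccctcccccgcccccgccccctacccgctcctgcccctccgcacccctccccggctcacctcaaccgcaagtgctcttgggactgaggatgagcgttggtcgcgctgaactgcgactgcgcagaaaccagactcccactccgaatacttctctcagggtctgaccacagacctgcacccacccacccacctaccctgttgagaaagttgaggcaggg
Khk (chr5:30921309-30921608, plus strand): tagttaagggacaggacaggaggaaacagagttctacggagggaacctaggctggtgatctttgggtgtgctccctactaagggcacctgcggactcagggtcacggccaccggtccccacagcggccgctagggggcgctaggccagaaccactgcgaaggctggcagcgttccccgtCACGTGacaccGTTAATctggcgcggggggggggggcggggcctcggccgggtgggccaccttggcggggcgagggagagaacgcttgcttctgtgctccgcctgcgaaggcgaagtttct
Lct (chr1:128328269-128328568, minus strand): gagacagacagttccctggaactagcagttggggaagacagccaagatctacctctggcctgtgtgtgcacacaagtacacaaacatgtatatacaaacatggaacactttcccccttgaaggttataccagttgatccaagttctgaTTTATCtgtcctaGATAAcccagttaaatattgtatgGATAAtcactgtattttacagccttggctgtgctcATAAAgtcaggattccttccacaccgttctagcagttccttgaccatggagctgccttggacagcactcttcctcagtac

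The Sis window held 1 GTTAAT and 4 TTTAT matches, 2 of which abut in a single capital run. The Lct window held 2 TTTAT and 3 GATAA matches, and 1 pair of them overlaps in TTTATC. In Khk there were 1 GTTAAT and 1 CACGTG match, and the windows of Treh and Slc2a5 held 0 matches to any of the 4 motifs. Among 32851 promoter windows of the same length, GTTAAT was present in 7.1%, TTTAT in 40%, GATAA in 25.4% and CACGTG in 7.15%. Base composition differed widely, with a GC content of 34% in the Sis window, 44.7% in Lct, 54.7% in Treh, 65.3% in Slc2a5 and 65.7% in Khk, beside a median of 52.7% over all windows. The 2 genes called in the comparisons below, Sis and Slc2a5, thus share none of the 4 motifs in these windows, and no binding was measured.

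The 18 arrays had medians of 6.47 to 6.51 on the log2 scale, and any 2 of them correlated with r between 0.978 and 0.993 across genes, which are not independent replicates. On the second principal component (14.8% of the variance) marrow-only ICA mouse 1 (-20.5), T cell ICA mouse 1 (-19.8) and marrow-only vehicle mouse 3 (-19.5) lay farthest to one side, and marrow-only ICA mouse 3 (24.9) lay farthest to the other. The first of these arrays moves several of the results below, which are therefore given with and without it. Leaving out marrow-only ICA mouse 3, at the opposite end, moves several of them the other way, and those differences are given where they changed most. Marrow-only ICA mouse 1 had the highest value of its group for Sis, Treh, Slc2a5 and Khk, so leaving it out lowers that group's mean for them. Shares of all genes without that mouse are therefore no like background for these genes. In whole ileum, fewer cells of a type and less RNA per cell cannot be told apart.

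**Figure D1:**
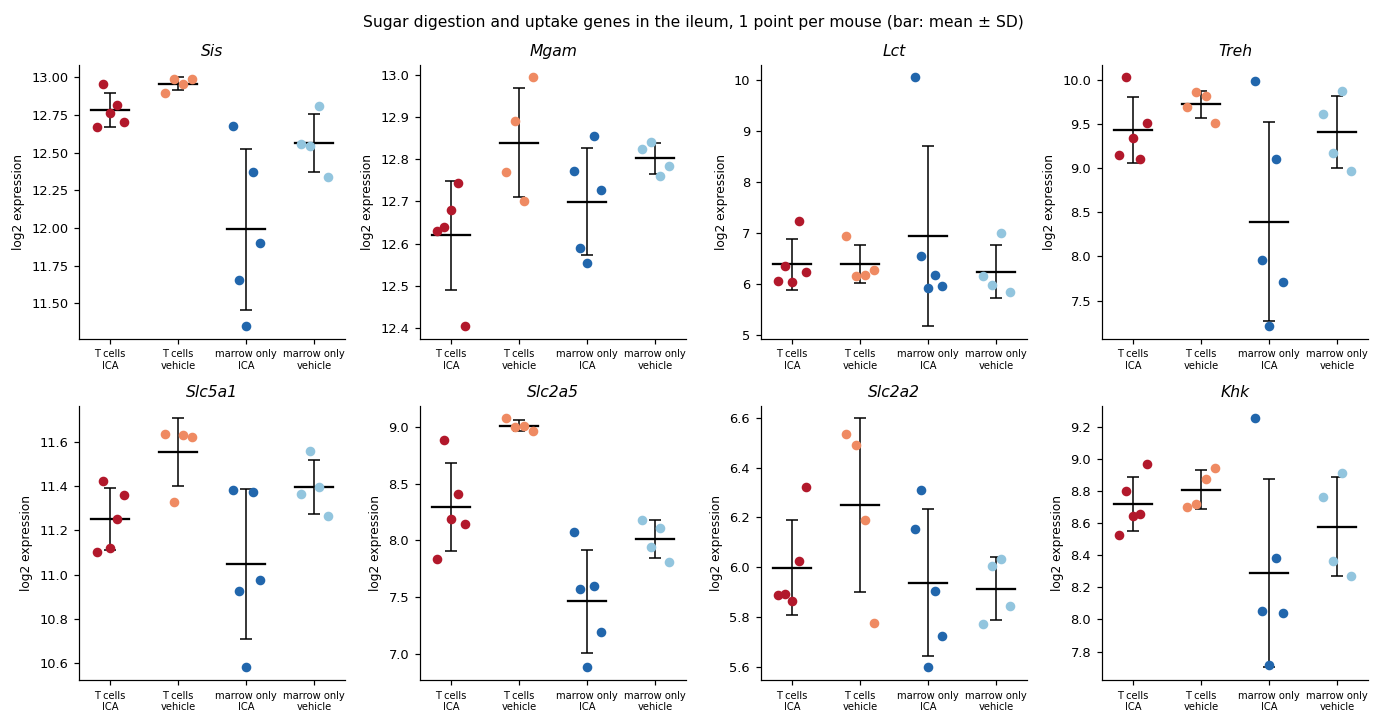
Log2 expression of the 8 genes, with 1 point per mouse and the mean ± SD of each group as bars, on a vertical scale of its own for each gene. For Slc2a5 the T cell vehicle mice lie between 8.97 and 9.08, above every mouse of the 3 other groups, and for Lct a single marrow-only ICA mouse lies at 10.06.

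Among the hydrolases, Sis was higher in the T cell arm. Its log2 values were 12.67, 12.96, 12.77, 12.81 and 12.71 in T cell mice given ICA, against 12.67, 11.65, 11.35, 12.38 and 11.90 in marrow-only mice given ICA (mice 1 to 5 of each group). Under vehicle, Sis had 12.90, 12.99, 12.95 and 12.99 in T cell mice, against 12.55, 12.54, 12.81 and 12.34 in marrow-only mice. Every T cell vehicle mouse lay above every marrow-only vehicle mouse, whereas under ICA marrow-only mouse 1 reached the lowest T cell mouse and mice 2, 3 and 5 lay far below. The group means of Sis were 12.78 ± 0.11 in T cell ICA mice (SD, n = 5), 12.96 ± 0.04 in T cell vehicle mice (n = 4), 11.99 ± 0.54 in marrow-only ICA mice (n = 5) and 12.56 ± 0.19 in marrow-only vehicle mice (n = 4). In order they ran T cell vehicle, T cell ICA, marrow-only vehicle, marrow-only ICA, and the values of each neighbouring pair overlapped.

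Treh followed the same order of group means with a wider spread. It had 9.15, 10.03, 9.34, 9.10 and 9.51 in T cell mice given ICA, against 9.98, 7.97, 7.21, 9.10 and 7.72 in marrow-only mice given ICA. Under vehicle the values were 9.69, 9.86, 9.82 and 9.51 in T cell mice, against 9.61, 9.18, 9.87 and 8.97 in marrow-only mice. The low values were again those of marrow-only ICA mice 2, 3 and 5, while mouse 1 of that group was among the highest of all 18. The means were 9.43 ± 0.37 (T cells, ICA), 9.72 ± 0.16 (T cells, vehicle), 8.39 ± 1.12 (marrow only, ICA) and 9.41 ± 0.41 (marrow only, vehicle), and all groups overlapped with their neighbours.

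Mgam varied least, over 0.59 log2 units across the 18 mice, between 12.40 and 13.00. Its means were 12.62 ± 0.13 in T cell ICA mice, 12.84 ± 0.13 in T cell vehicle mice, 12.70 ± 0.13 in marrow-only ICA mice and 12.80 ± 0.04 in marrow-only vehicle mice. The 2 vehicle groups stood above the 2 ICA groups and neighbours in that order overlapped, while all T cell ICA mice (up to 12.74) lay below all marrow-only vehicle mice (from 12.76).

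Lct lay between 5.85 and 7.23 in 17 mice and at 10.06 in marrow-only ICA mouse 1. Its mean over the 18 mice was 6.51 (percentile 43.7 of all genes), beside a median of 6.49 over all probe sets. No detection call was given, so whether the values of those 17 mice stand above background is unknown. Its values were 6.06, 6.37, 6.05, 7.23 and 6.24 in T cell mice given ICA, against 10.06, 6.56, 5.93, 6.18 and 5.97 in marrow-only mice given ICA. In vehicle mice they were 6.95, 6.16, 6.19 and 6.28 with T cells, against 6.16, 5.98, 7.00 and 5.85 with marrow only. Apart from that 1 mouse the groups overlapped throughout, and the marrow-only ICA mean was 6.94 ± 1.76 with it (n = 5) and 6.16 ± 0.29 without it (n = 4). The range over all mice was 4.21 with that mouse and 1.39 without it.

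Of the transporters, Slc2a5, which carries fructose, separated the groups most clearly. It had 7.83, 8.88, 8.19, 8.41 and 8.14 in T cell mice given ICA, against 8.07, 7.58, 6.88, 7.60 and 7.19 in marrow-only mice given ICA. Vehicle mice had 9.08, 9.00, 9.01 and 8.97 with T cells, against 8.18, 7.94, 8.11 and 7.81 with marrow only. The 4 T cell vehicle mice were tightly grouped above all others, and marrow-only ICA mice 2 to 5 were the lowest 4 of the 18. The means were 8.29 ± 0.39 (T cells, ICA), 9.01 ± 0.05 (T cells, vehicle), 7.46 ± 0.45 (marrow only, ICA) and 8.01 ± 0.17 (marrow only, vehicle). T cell ICA and marrow-only vehicle mice, which are neighbours in that order, overlapped.

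The glucose transporter Slc5a1 was lowest in marrow-only ICA mice. It had 11.10, 11.42, 11.12, 11.25 and 11.36 in T cell mice given ICA, against 11.38, 10.93, 10.58, 11.37 and 10.97 in marrow-only mice given ICA. Vehicle mice had 11.64, 11.33, 11.63 and 11.63 with T cells, against 11.36, 11.56, 11.40 and 11.26 with marrow only. Marrow-only ICA mice 2, 3 and 5 were below all others here too, and the 3 other groups overlapped. The means were 11.25 ± 0.14 (T cells, ICA), 11.56 ± 0.15 (T cells, vehicle), 11.05 ± 0.34 (marrow only, ICA) and 11.40 ± 0.12 (marrow only, vehicle). Slc2a2 (GLUT2) ran from 5.60 to 6.54 over the 18 mice, with means of 6.00 ± 0.19 (T cells, ICA), 6.25 ± 0.35 (T cells, vehicle), 5.94 ± 0.30 (marrow only, ICA) and 5.91 ± 0.13 (marrow only, vehicle). These groups overlapped in every pairing, and the deposited table gives no detection call that would say whether such values stand above background.

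Khk, which traps fructose in the cell, had 8.53, 8.80, 8.65, 8.66 and 8.97 in T cell mice given ICA, against 9.25, 8.05, 7.72, 8.38 and 8.04 in marrow-only mice given ICA. In vehicle mice it had 8.70, 8.72, 8.88 and 8.95 with T cells, against 8.76, 8.37, 8.92 and 8.27 with marrow only. Marrow-only ICA mouse 1 was the highest of the 18 and mice 2, 3 and 5 of its group the lowest 3. The means were 8.72 ± 0.17 (T cells, ICA), 8.81 ± 0.12 (T cells, vehicle), 8.29 ± 0.59 (marrow only, ICA) and 8.58 ± 0.31 (marrow only, vehicle), in the same order as for Sis, Treh and Slc2a5.

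**Figure D2:**
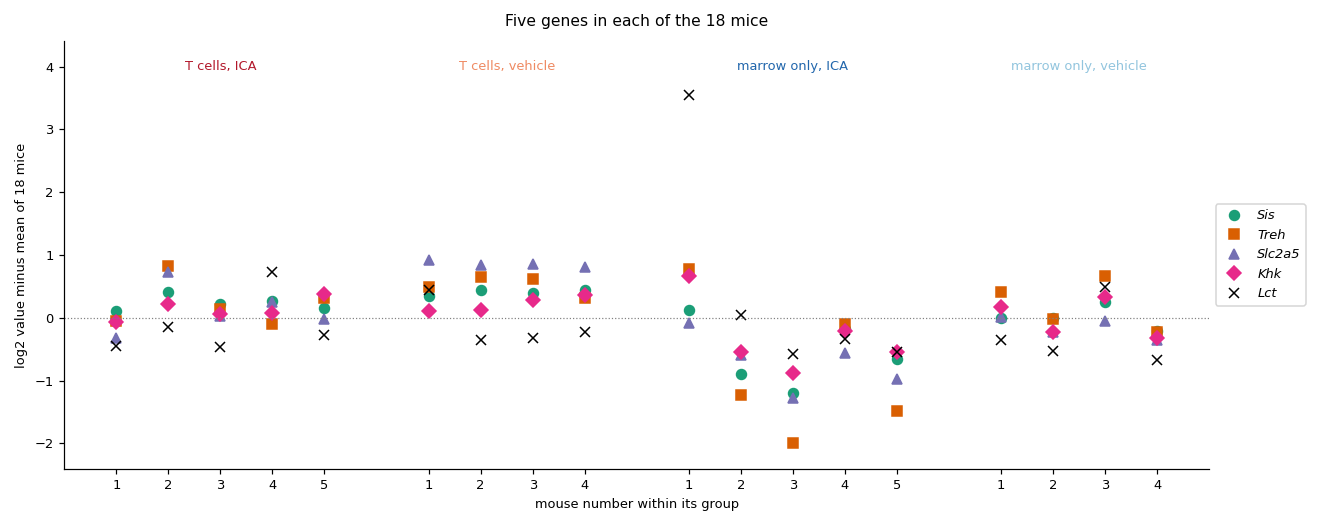
Log2 value of Sis, Treh, Slc2a5, Khk and Lct in each mouse minus the mean of that gene over the 18 mice, with the mice numbered within their groups. Marrow-only ICA mice 2, 3 and 5 lie below 0 for Sis, Treh, Slc2a5 and Khk, while mouse 1 of that group is above 0 for all but Slc2a5 and has the isolated Lct value of 10.06.

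The first question was what donor T cells changed under vehicle, in mice with GvHD against marrow-only mice. Of the 8 genes, Slc2a5 rose, and the other 7 did not pass the test (limma, p adjusted over all genes, called under 0.05). Slc2a5 was higher by 1.0 ± 0.20 on the log2 scale (difference ± SE, a 2-fold change, adjusted p = 0.0148). This is 1 of 8 genes called upward, where 0.794% of all genes were. Sis differed by 0.40 ± 0.19 (adjusted p = 0.371) and Slc2a2 by 0.34 ± 0.16 (adjusted p = 0.396). Treh (0.31 ± 0.40), Khk (0.23 ± 0.22), Slc5a1 (0.16 ± 0.14), Lct (0.15 ± 0.61) and Mgam (0.04 ± 0.08) had smaller differences, with adjusted p from 0.697 to 0.957. All 8 differences were above 0, with a median of 0.27 beside 0.01 over all genes. Sis and Slc2a5 were the 2 genes with no overlap between the groups, which 6.33% of all genes showed in that direction. Without marrow-only vehicle mouse 4 the Slc2a5 difference was 0.94 with an adjusted p of 0.0645, and over its 18 alternatives the adjusted p ran from 0.000179 to 0.0645. When only these 2 groups were fitted, Sis was called too (adjusted p = 0.0242, with 0.0242 to 0.621 over its alternatives).

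Under ICA, a comparison of other mice, T cell mice again had more Slc2a5 transcript than marrow-only mice, and also more Sis. Slc2a5 rose by 0.83 ± 0.18 (1.78-fold, adjusted p = 0.0129) and Sis by 0.79 ± 0.17 (1.73-fold, adjusted p = 0.01). These are 2 of 8 genes called upward, beside 1.05% of all genes. Treh differed by 1.03 ± 0.35, with an interval from 0.29 to 1.77, but did not pass (adjusted p = 0.127), and Khk differed by 0.43 ± 0.20 (adjusted p = 0.273). Slc5a1 (0.20 ± 0.12), Slc2a2 (0.06 ± 0.15), Mgam (-0.08 ± 0.07) and Lct (-0.55 ± 0.54) did not pass either. The median of the 8 differences was 0.32, beside -0.01 over all genes. No member was free of overlap between these groups, where 1.16% of all genes lay wholly higher in T cell mice. Fitted on these 2 groups alone, neither gene passed (Sis 0.79, adjusted p = 0.0568; Slc2a5 0.83, adjusted p = 0.0756). Over its 20 alternatives the adjusted p ran from 0.00016 to 0.0568 for Sis and from 0.00024 to 0.0756 for Slc2a5.

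Marrow-only ICA mouse 1 changed how many genes passed here. Without it 4 genes rose in T cell mice under ICA, where 2.78% of all genes did. They were Treh by 1.43 ± 0.27 (adjusted p = 0.00255), Slc2a5 by 0.98 ± 0.16 (adjusted p = 0.000889), Sis by 0.96 ± 0.14 (adjusted p = 0.00016) and Khk by 0.67 ± 0.13 (adjusted p = 0.00388). In each of these 4 genes every T cell mouse then lay above every marrow-only mouse, as in 3.24% of all genes. The mouse left out was the highest of its group for each of these 4 genes, so this separation follows in part from its removal. Over their 20 alternatives the adjusted p ran from 0.00255 to 0.318 for Treh and from 0.0017 to 0.553 for Khk, with the highest value of both reached without marrow-only ICA mouse 3. The differences without mouse 3 were smaller, at 0.74 for Treh, 0.68 for Slc2a5, 0.63 for Sis and 0.29 for Khk.

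**Figure D3:**
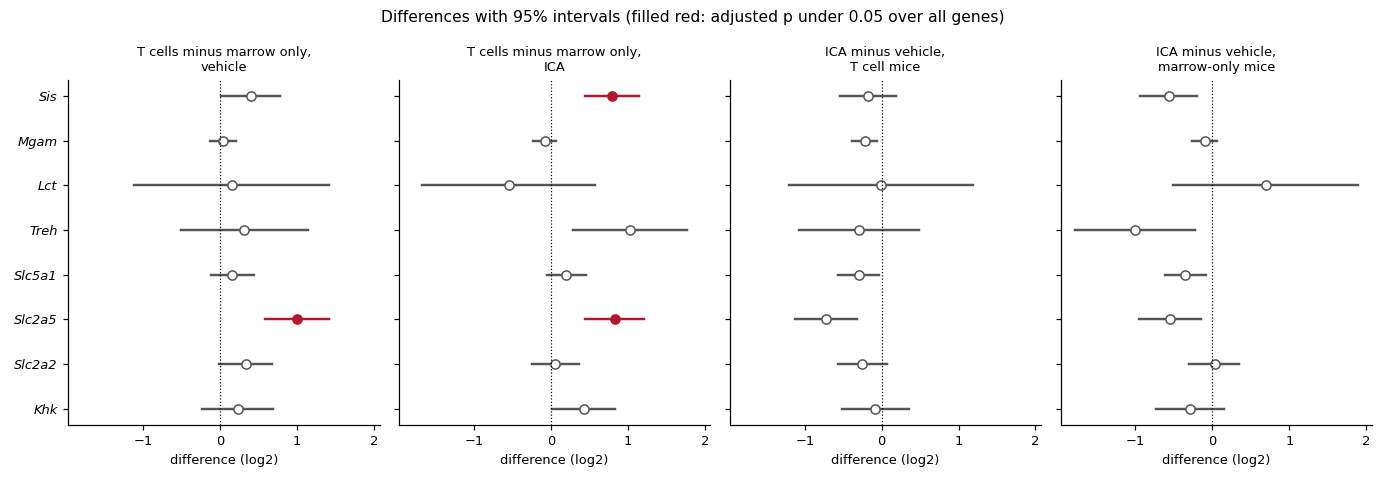
Difference in log2 expression of the 8 genes in 4 comparisons, with 95% intervals and filled red points where the adjusted p over all genes was under 0.05. Slc2a5 is filled in both T cell comparisons (1.0 under vehicle and 0.83 under ICA) and Sis under ICA (0.79), and no gene is filled for ICA against vehicle.

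Averaged over both treatments, Slc2a5 was higher in T cell than in marrow-only mice by 0.92 ± 0.14 (1.89-fold, adjusted p = 0.00027) and Sis by 0.59 ± 0.13 (1.51-fold, adjusted p = 0.00519). Both passed under each of their 27 alternatives, with adjusted p up to 0.00105 for Slc2a5 and 0.0176 for Sis. This average rests on the mice of both comparisons above and is not a further sample. The 2 genes are read beside 3.58% of all genes called upward. Treh (0.67 ± 0.27, adjusted p = 0.147) and Khk (0.33 ± 0.15, adjusted p = 0.208) passed when marrow-only ICA mouse 1 was left out (0.87, adjusted p = 0.00632, and 0.45, adjusted p = 0.00466), beside 4.7% of all genes. Over the 27 alternatives the adjusted p ran from 0.0036 to 0.261 for Treh and from 0.000905 to 0.358 for Khk. Mgam differed by -0.02 ± 0.05, with an interval from -0.13 to 0.09, so a change of the size seen for Sis lies outside its interval. Both genes lay near the top of the array's scale, at percentiles 99.9 (Mgam) and 99.8 (Sis) of all genes by mean level. Whether differences are compressed at such levels was not tested.

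The T cell effect was not shown to depend on treatment for any member. The interaction, the T cell difference under ICA minus that under vehicle, was 0.40 ± 0.25 for Sis (95% interval -0.13 to 0.92), -0.17 ± 0.27 for Slc2a5 (-0.74 to 0.39) and 0.72 ± 0.53 for Treh (-0.39 to 1.83). With limma 0 of the 8 genes and 0% of all genes passed, and 0 of the 8 genes had an unadjusted p under 0.05, as 6.68% of all genes did. Without marrow-only ICA mouse 1 the interaction was 0.57 ± 0.20 for Sis (adjusted p = 0.367), 1.11 ± 0.39 for Treh (adjusted p = 0.368) and 0.44 ± 0.20 for Khk (adjusted p = 0.479). These 3 genes then had an unadjusted p under 0.05, as did 9.48% of all genes, and 0 of the 8 passed after adjustment.

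Other cell types of the ileum also differed between the graft arms, and their part in the sugar gene differences was not tested. On average over both treatments 6 of 10 T cell markers, 7 of 10 macrophage markers and 8 of 10 smooth muscle markers rose, and 5 of 8 Paneth cell markers fell, beside 3.58% of all genes called upward and 3.62% downward. The mean level of the T cell markers ran from 7.36 to 8.02 in T cell ICA mice, from 7.39 to 8.19 in T cell vehicle mice, from 6.65 to 7.60 in marrow-only ICA mice and from 6.53 to 7.02 in marrow-only vehicle mice. That of smooth muscle ran from 10.11 to 10.48, 10.08 to 10.34, 9.80 to 10.04 and 9.83 to 10.03 in the same groups. The mean of 12 epithelial markers lay within 11.43 to 11.60 in every mouse, their median difference was -0.01, and 1 of them, the transcription factor Elf3, fell (-0.52 ± 0.06, adjusted p = 2.15e-05). In the array's log2 values no marker has a level of 0.

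The next question was what ICA changed in each graft arm. None of the 8 genes passed in T cell mice, in marrow-only mice or on average, where 0.0135%, 0.00451% and 0.0135% of all genes passed. In T cell mice all 8 differences were below 0, with a median of -0.24 beside -0.01 over all genes. The largest was that of Slc2a5, -0.72 ± 0.19 with an interval from -1.12 to -0.32 (adjusted p = 0.339). Every T cell mouse given ICA had less Slc2a5 than every T cell mouse given vehicle, as in 1.78% of all genes. At an unadjusted p under 0.05, 3 of the 8 genes were lower with ICA in T cell mice (3.83% of all genes), namely Slc2a5, Slc5a1 (-0.30 ± 0.13, adjusted p = 0.66) and Mgam (-0.22 ± 0.08, adjusted p = 0.527). Sis (-0.18 ± 0.18), Treh (-0.29 ± 0.38), Slc2a2 (-0.25 ± 0.16), Khk (-0.09 ± 0.21) and Lct (-0.01 ± 0.57) had intervals that include 0. These differences use the T cell vehicle mice of the first comparison, so the 1.0 and -0.72 of Slc2a5 share the same 4 arrays.

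In marrow-only mice, ICA against vehicle gave differences of -1.01 ± 0.38 for Treh, -0.57 ± 0.18 for Sis, -0.55 ± 0.19 for Slc2a5 and -0.35 ± 0.13 for Slc5a1, with adjusted p from 0.598 to 0.617. Those 4 genes had an unadjusted p under 0.05, as did 3.29% of all genes in that direction. Khk differed by -0.29 ± 0.21, Mgam by -0.10 ± 0.08, Slc2a2 by 0.03 ± 0.16 and Lct by 0.69 ± 0.57. The median over the 8 was -0.32, beside 0.01 over all genes. These differences use the marrow-only ICA mice of the T cell comparison under ICA, so the 0.79 and -0.57 of Sis share the same 5 arrays.

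Without marrow-only ICA mouse 1, Sis (-0.74 ± 0.14, adjusted p = 0.0283) and Treh (-1.41 ± 0.28, adjusted p = 0.0358) fell with ICA in marrow-only mice, where 0.383% of all genes did. Slc2a5 (-0.70 ± 0.17, adjusted p = 0.0741) did not pass but was the 1 gene of the 8 with no overlap between the groups, as in 2.52% of all genes. The mouse left out was the highest of its group for Sis, Treh and Slc2a5, so these changes follow in part from its removal. Over the 19 alternatives the adjusted p ran from 0.0283 to 0.969 for Sis, from 0.0358 to 0.969 for Treh and from 0.0741 to 0.969 for Slc2a5, with the highest values reached without marrow-only ICA mouse 3. The differences without mouse 3 were -0.41 for Sis, -0.72 for Treh and -0.40 for Slc2a5. When the 3 arrays at the negative end of the second component were left out together, 0 of the 8 genes passed, beside 0.0406% of all genes, with Sis at -0.66 (adjusted p = 0.114) and Treh at -1.25 (adjusted p = 0.131).

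Averaged over both arms, the ICA difference was -0.63 ± 0.14 for Slc2a5 (adjusted p = 0.215), -0.33 ± 0.09 for Slc5a1 (adjusted p = 0.355), -0.37 ± 0.13 for Sis (adjusted p = 0.452), -0.16 ± 0.05 for Mgam (adjusted p = 0.454) and -0.65 ± 0.27 for Treh (adjusted p = 0.568). These 5 genes had an unadjusted p under 0.05, beside 4.15% of all genes in that direction. Without marrow-only ICA mouse 1, Slc2a5 (-0.71 ± 0.12, adjusted p = 0.0115) and Sis (-0.46 ± 0.10, adjusted p = 0.0404) fell, as 0.388% of all genes did. Over 27 alternatives the adjusted p ran from 0.0115 to 0.476 for Slc2a5 and from 0.0404 to 0.726 for Sis.

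**Figure D4:**
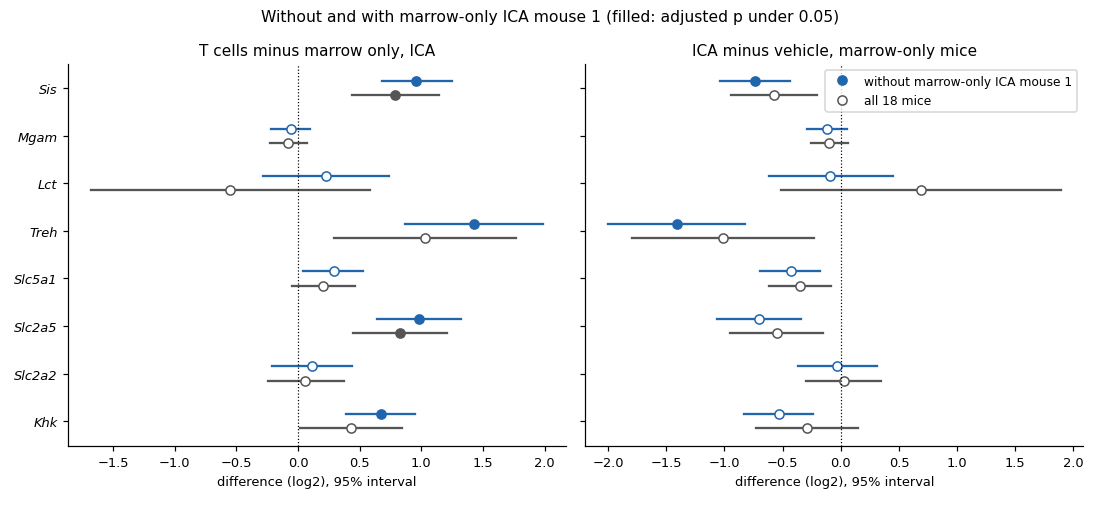
Differences of the 8 genes without (blue) and with (grey) marrow-only ICA mouse 1, with 95% intervals and filled points where the adjusted p was under 0.05. For T cells against marrow only under ICA 4 genes are filled without that mouse and 2 with it, and for ICA against vehicle in marrow-only mice Sis and Treh are filled without it and 0 genes with it.

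Marrow-only ICA mouse 1 differed from the other 17 mice in genes beyond Lct. Its level of Gata4, a transcription factor known in mouse for expression in duodenum and jejunum, was 7.74, against 6.23 to 7.06 in the others. Cyp2b10, a cytochrome P450 of the proximal intestine, had 7.77 there, against 5.15 to 6.88. The mean of 6 duodenal and jejunal markers was 7.96 in that mouse, against 6.33 to 7.11 in the 4 other marrow-only ICA mice and 6.98 to 7.34, 7.18 to 7.44 and 6.82 to 7.35 in T cell ICA, T cell vehicle and marrow-only vehicle mice. Of these 6 markers Gata4, Cyp2b10 and Apoc3 (9.17, against 7.62 to 9.02) were above all other mice, and Apoa4, Fabp1 and Tmprss15 were within their range. The mean includes Gata4 and Cyp2b10, which drew attention in this mouse after values were seen. It is therefore not separate from the values of those genes. Lists not chosen by position were also highest in this mouse. The mean of other brush border hydrolases was 10.81, against up to 10.69 in the other mice. Regulators of the carbohydrase genes, among them Gata4, had 10.26 against up to 10.13, and other sugar and fructose genes 8.88 against up to 8.86. The means of brush border structure genes (11.10) and epithelial markers (11.57) lay within the range of the other mice. Its ileal markers were within the range of the others, with Fabp6 at 12.56 and Slc10a2 at 10.49. Its T cell marker mean was 6.65, against 6.96 to 7.60 in the 4 others of its group. The place along the ileum at which each sample was taken is not given in the sources used here. Whether it bears on the Lct, Treh and Khk values of this mouse was not tested.

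The wider set of sugar and fructose genes moved in both directions. Of the list written for them, 23 genes were measured and the others were not analysed here. Averaged over both treatments, 6 of the 23 rose and 2 fell in T cell mice (beside 3.58% and 3.62% of all genes), with a median of 0.19 beside 0 over all genes. Without marrow-only ICA mouse 1, 12 rose and 2 fell, where 4.7% of all genes rose and 2001 of 22180 were called in either direction. Fbp1, the fructose bisphosphatase of gluconeogenesis, rose by 0.84 ± 0.14 (adjusted p = 0.00101), and Pck1, the carboxykinase of the same pathway, by 1.07 ± 0.28 (adjusted p = 0.0256). Fbp1 averaged 8.44 ± 0.19 in T cell ICA mice, 8.58 ± 0.20 in T cell vehicle mice, 7.39 ± 0.57 in marrow-only ICA mice and 7.95 ± 0.22 in marrow-only vehicle mice.

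Slc5a4b (1.24 ± 0.34, adjusted p = 0.0324) and Slc5a4a (0.92 ± 0.21, adjusted p = 0.0104), a pair of closely related genes of the SGLT family, also rose. Their probes may share transcripts, so the values of these 2 genes may not be separate measurements. Slc2a9, a urate transporter of the GLUT family, rose by 0.41 ± 0.09 (adjusted p = 0.00581), and the mitochondrial aldehyde dehydrogenase Aldh1b1 by 0.23 ± 0.07 (adjusted p = 0.0488). The genes that fell were Slc5a9, a sodium-coupled transporter of mannose and fructose (-0.65 ± 0.08, adjusted p = 3.51e-05), and Hk2, a hexokinase (-0.82 ± 0.17, adjusted p = 0.00392). Slc5a9 averaged 7.72 ± 0.22 and 7.71 ± 0.09 in T cell mice given ICA and vehicle, against 8.49 ± 0.19 and 8.24 ± 0.16 in marrow-only mice given the same. Slc2a5 and Slc5a9, which can both carry fructose, thus changed in opposite directions, and Slc2a2, which also carries it, differed by 0.20 ± 0.11 (adjusted p = 0.341).

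**Figure D5:**
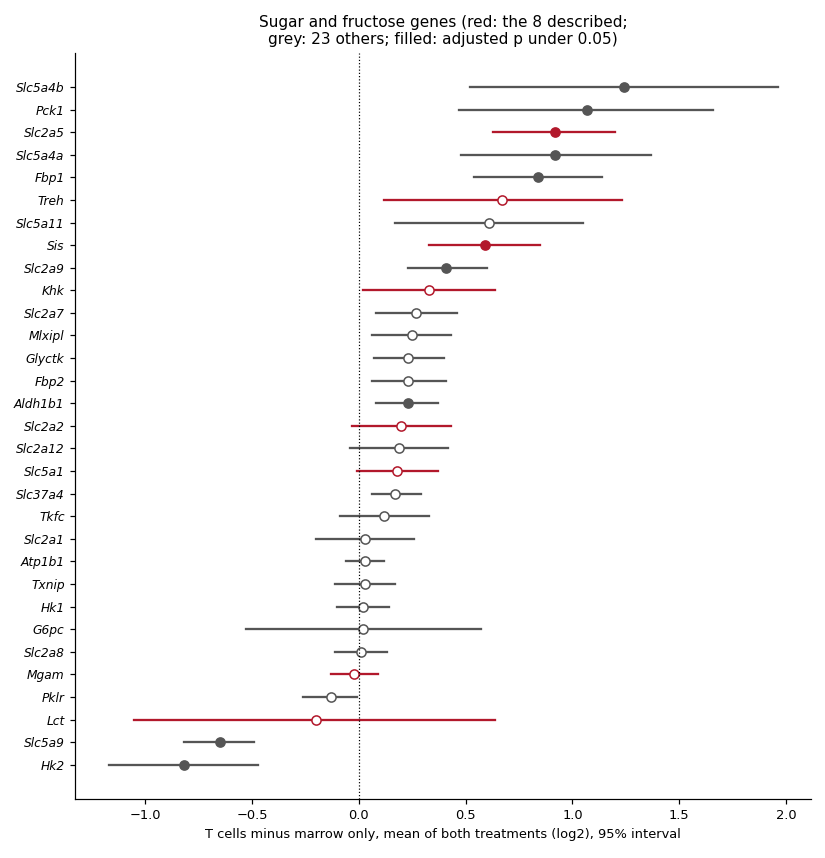
Difference between T cell and marrow-only mice, averaged over both treatments, for the 8 genes (red) and 23 other sugar and fructose genes (grey), with 95% intervals and filled points where the adjusted p was under 0.05. Slc2a5 (0.92) and Sis (0.59) are the filled red points, and Slc5a9 (-0.65) and Hk2 (-0.82) are filled on the negative side.

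Split by treatment, fewer of these genes passed. In T cell mice 0 of the 23 rose and 1 fell under vehicle (Slc5a9, -0.53 ± 0.12, adjusted p = 0.0277), with a median of 0.21. Of all genes 0.794% rose and 0.681% fell there. Leaving out marrow-only ICA mouse 1 gave 2 that rose and 1 that fell, a fit whose share of all genes is not given here. Leaving out the 3 arrays at the negative end of the second component gave 8 and 2, where 664 of 22180 genes were called in either direction. Under ICA 1 rose (Fbp1, 1.05 ± 0.19, adjusted p = 0.0036) and 2 fell (Slc5a9, -0.78 ± 0.11, adjusted p = 0.000405, and Hk2, -1.05 ± 0.22, adjusted p = 0.0107), with a median of 0.23. Of all genes 1.05% rose and 2.07% fell under ICA. When marrow-only ICA mouse 1 was left out, 12 of the 23 rose and 2 fell under ICA. In that fit 2.78% of all genes rose and 1373 of 22180 were called in either direction. For ICA against vehicle 0 of the 23 passed in either arm, with medians of -0.11 in T cell mice and -0.19 in marrow-only mice. In marrow-only mice 5 fell without marrow-only ICA mouse 1, as 0.383% of all genes did. The mean level of the 23 genes ran from 8.54 to 8.70 in T cell ICA mice, from 8.71 to 8.86 in T cell vehicle mice, from 8.15 to 8.88 in marrow-only ICA mice and from 8.46 to 8.80 in marrow-only vehicle mice, and the 8.88 was that of mouse 1.

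Few other brush border genes passed in the T cell arm. Of 13 other brush border hydrolases 0 passed in any of the T cell comparisons, and their median was 0.05 on average over both treatments. Without marrow-only ICA mouse 1, 4 of them rose in T cell mice on average and 4 under ICA, beside 4.7% and 2.78% of all genes. Of 10 genes of brush border structure, Eps8, an actin-capping protein, fell (-0.20 ± 0.05, adjusted p = 0.026), beside 3.62% of all genes, and the median was 0.07. For ICA against vehicle the structural genes had medians of -0.15 in T cell mice and -0.18 in marrow-only mice. The medians over all genes were -0.01 and 0.01. Of the 10 structural differences 0 were above 0 in either arm, and 0 were called. The hydrolases had medians of -0.17 and -0.27 there, with 2 and 1 of 13 above 0 and 0 called. Without marrow-only ICA mouse 1, 3 hydrolases and 1 structural gene fell with ICA in marrow-only mice, beside 0.383% of all genes. On average over both arms 4 and 2 of them fell, beside 0.388% of all genes. Most differences with ICA in these brush border lists were thus negative, and those called depended on that mouse. The genes were measured in the same mice, so their signs are not separate observations. The share of all genes below 0 is not given here.

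Among 10 measured regulators of the carbohydrase genes, which include HNF4, CDX, GATA and KLF factors, Creb3l3 rose in T cell mice on average (0.47 ± 0.14, adjusted p = 0.0372), and the median was -0.05. Creb3l3 is a membrane-bound transcription factor of liver and small intestine. Of 17 genes of glycolysis and fatty acid synthesis 0 rose and 1 fell, the fatty acid elongase Elovl6 (-0.36 ± 0.10, adjusted p = 0.0245), with a median of 0.04. Among 6 ileal markers Cubn, the receptor that takes up vitamin B12 with intrinsic factor, rose (1.21 ± 0.29, adjusted p = 0.0137) and the bile acid receptor Nr1h4 fell (-0.35 ± 0.07, adjusted p = 0.00475). In this average over both treatments 3.58% of all genes were called upward and 3.62% downward.

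The genes most like Sis over the 18 arrays were Cubn (r = 0.98), Fmo5 (0.98), Abcc2 (0.96) and Scin (0.96). Cubn averaged 11.83 ± 0.27 and 12.33 ± 0.03 in T cell mice given ICA and vehicle, against 10.05 ± 1.33 and 11.69 ± 0.27 in marrow-only mice given the same, with the same order of groups as Sis. Those most like Slc2a5 were Cyp2u1 (0.95), Inpp5k (0.95), Gm10768 (0.95) and Nr1d2 (0.94). These values of r describe 18 arrays that share group differences and array effects.

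Nr1d2, which encodes the clock repressor REV-ERBβ, brings the circadian clock beside Slc2a5. It averaged 8.86 ± 0.20 in T cell ICA mice, 9.32 ± 0.10 in T cell vehicle mice, 7.93 ± 0.25 in marrow-only ICA mice and 8.43 ± 0.31 in marrow-only vehicle mice, in the same order as Slc2a5. Of 15 clock genes 7 rose and 2 fell in T cell mice under vehicle, 7 rose and 2 fell under ICA, and 8 rose and 3 fell on average. Of all genes 0.794%, 1.05% and 3.58% were called upward and 0.681%, 2.07% and 3.62% downward in the same comparisons. Per3, a period gene of the clock, rose by 1.24 ± 0.12 under vehicle (adjusted p = 1.05e-05) and by 0.73 ± 0.10 under ICA (adjusted p = 0.000542), and Arntl, which encodes the clock activator BMAL1, fell under vehicle (-0.96 ± 0.13, adjusted p = 0.00072). With ICA, Per3 (-0.91 ± 0.11, adjusted p = 0.00155) and Ciart (-0.85 ± 0.12, adjusted p = 0.00788) fell in T cell mice and Nr1d1 (-1.16 ± 0.16, adjusted p = 0.0132) in marrow-only mice. Among all 22180 genes, 3 were called with ICA in T cell mice (0.0135%) and 1 in marrow-only mice (0.00451%). The hour at which each ileum was taken is not given in the sources used here, and the part of the clock genes in the Slc2a5 differences was not tested.

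Within groups, Sis, Treh and Khk varied together from mouse to mouse, and Slc2a5 varied with Sis and Treh and less closely with Lct. After each group's mean was taken off, Sis and Treh correlated with a Pearson r of 0.93 and a Spearman rho of 0.82 over the 18 mice (permutation p of 5e-04 and 0.00447 from 100000 rearrangements within groups, adjusted over 28 pairs of genes 0.0056 and 0.0345). Treh and Khk had r = 0.90 and rho = 0.83 (adjusted permutation p 0.0056 and 0.0345), and Sis and Khk had r = 0.87 and rho = 0.80 (adjusted permutation p 0.0056 and 0.0345). The 2 mice farthest from the median of the first-named gene of each pair were marrow-only ICA mice 1 and 3. Without them r was 0.82 for Sis and Treh, 0.73 for Treh and Khk, and 0.64 for Sis and Khk. In all 6 of the 28 pairs passed by both measures, and the rest of these pairs held Slc2a5. Treh and Slc2a5 had r = 0.82 (adjusted permutation p 0.0056 and 0.0411). Sis and Slc2a5 had r = 0.76 (adjusted permutation p 0.0221 and 0.0411), and Lct and Slc2a5 r = 0.66 (0.0474 and 0.0345). With the 2 mice farthest from the median of the first-named gene of each pair left out, r was 0.64, 0.47 and 0.50 in the same order. With marrow-only ICA mouse 1 left out and its group mean refitted, r was 0.73, 0.62 and 0.46. Sis and Lct, with r = 0.69, did not pass by r (adjusted permutation p 0.0722). Their r dropped to 0.19 without marrow-only ICA mice 1 and 3, so that relation rests on these mice. Lct and Khk, with r = 0.81, did not pass by r either (adjusted permutation p 0.056). With marrow-only ICA mouse 1 left out and its group mean refitted, their r was 0.34. Mgam had r of 0.30 with Treh and 0.21 with Khk, and neither passed. The points share arrays, and marrow-only ICA mice spread the most.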

How the data were processed

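Ileal RNA of 18 mice was run on Affymetrix whole-transcript arrays, per the labels' protocols. RMA, Partek and GenomeStudio are named, without versions or roles, in the submitters' processing notes, and no array build is given. The authors deposited 1 table of normalised values, taken as log2 from their range, since the log base is not stated. Of 41345 probe sets 23521 had 1 gene symbol, 1814 several and 16010 none listed. A gene was tested on its single-symbol probe set with the highest mean, which gave 22180 genes, with no filter and no further normalization.

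One limma 3.58.1 model (R 4.3.3) with a mean for each of 4 groups was fitted to all 18 arrays (14 residual and 6.1 prior degrees of freedom, prior variance trended on level). All p are two-sided and adjusted over all genes (Benjamini-Hochberg), and a gene was called under 0.05. Intervals are 95% and fold changes are powers of the log2 differences. The model was tested on simulated data.

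The 8 genes and 16 lists (196 entries, 172 measured) were chosen with earlier results of these data known. The text names the 8 genes in every group, list members that were called (up to 6 per list and comparison), the 4 genes most like each of Sis and Slc2a5, and fixed checks (Fabp6, Slc10a2, Per3, Arntl and others). Slc23a1, Aldh18a1 and Plb1, and the attention to Gata4 and Cyp2b10 in 1 mouse, came after values were seen. Each mouse is a separate animal, and the labels give no batch, cage or litter. Same-numbered mice of different groups were not paired, since 3 of 25 such pairs correlated above 0.1 (-0.142 to 0.201). Alternatives were mouse number as a block, a further quantile normalization, centring on medians, a filter, probe set means, 2 other prior variances, array weights, only the groups compared and each mouse left out. Leaving out 3 arrays together was added after the data were seen. Promoters came from RefSeq (GRCm38.p6), and figures were drawn with matplotlib 3.10.9.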

Additional observations from a re-analysis of the deposited data

Results flagged for a closer look

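Of 32 sets of values (8 genes in 4 groups), 4 had 1 mouse far from the others of its group, and chance alone sets apart about 1 in 20. Lct, the lactase gene, accounted for 3 of them. It was 7.23 in T cell ICA mouse 4, against 6.05 to 6.37 in the rest of that group, and 6.95 in T cell vehicle mouse 1, against 6.16 to 6.28. In marrow-only ICA mouse 1 Lct was 10.06, against 5.93 to 6.56. Slc5a1, the glucose transporter, was 11.33 in T cell vehicle mouse 2, against 11.63 to 11.64 in the others.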

How the results depend on the processing

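Slc2a5 and Sis kept their direction under every alternative run for T cells against marrow only, and passed in all 27 for the average over treatments. Under array weights the genes called numbered 1074 (T cells, vehicle), 1049 (T cells, ICA), 2543 (T cells, average), 13 (ICA, T cell mice) and 5 (ICA, average), with 4 members in the T cell average, Lct at 0.01 there and 0.07 for ICA in T cell mice, and Slc2a2 at -0.04 for ICA in marrow-only mice. With only the groups compared, 824 genes and 2 members passed for T cells under vehicle, 321 genes and 0 members under ICA, 49 genes for ICA in T cell mice and 0 in marrow-only mice; the averages and the interaction already use all 4 groups and were not rerun. Without the 3 arrays the counts were 664, 1515 (4 members), 2493 (4 members), 39, 9, 106 (1 member) and 3 for the interaction; Lct was 0.31 for T cells under ICA, 0.35 on average and 0.08 for ICA in T cell mice, and the Slc2a5 interaction 0.06. With mouse number as a replicate block, Lct was 0.13 for ICA in T cell mice and 0 genes passed for ICA in marrow-only mice; no member's call changed under the block. The ICA average gave 1 gene under quantile normalization, median centring, an untrended prior and a robust prior, and a robust prior gave 0 genes for ICA in marrow-only mice. Quantile normalization put the T cell average of Mgam at 0.02, and median centring Lct at 0.01 for ICA in T cell mice.

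With 1 mouse left out, the genes called ranged from 94 to 326 (T cells, vehicle), 378 to 1373 (T cells, ICA), 1156 to 2001 (T cells, average), 1 to 9 (ICA, T cell mice), 0 to 119 (ICA, marrow only), 1 to 97 (ICA, average) and 0 to 2 (interaction). Members called ranged from 0 to 1, 2 to 4, 2 to 4, 0 to 0, 0 to 2, 0 to 2 and 0 to 0 in the same order. Lct ranged from -0.04 to 0.40, -0.80 to 0.23, -0.33 to 0.19, -0.22 to 0.18, -0.09 to 0.94, -0.05 to 0.47 and -0.95 to 0.08. Mgam ranged from -0.01 to 0.08 (T cells, vehicle) and -0.05 to 0.01 (T cells, average), Slc2a2 from -0.02 to 0.15 (T cells, ICA) and -0.07 to 0.11 (ICA, marrow only), and the Slc5a1 interaction from -0.07 to 0.13. The cause of these changes was not tested. Groups of 4 or 5 arrays limit the precision, and signal over background is unknown.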

Other observations

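The genes most like Lct over the 18 arrays were Slc23a1, a vitamin C transporter (r = 0.90), Aldh18a1, an enzyme of proline synthesis (0.85), and Gata4 (0.83). They were named after their values were seen. Lct was 10.06 in marrow-only ICA mouse 1 and 5.85 to 7.23 in the other 17 mice, so these r weigh that mouse heavily. No r without it is given here. High values of these genes in that mouse follow in part from this ranking and are no separate finding. In marrow-only ICA mouse 1 Slc23a1 had 6.93, against 5.69 to 6.26 in the other 17 mice, and Aldh18a1 had 10.24, against 9.58 to 10.03. Plb1, a brush border phospholipase, had 10.88 there, against 5.56 to 9.27. Alkaline phosphatase Alpi (12.28, against 10.33 to 12.18) and the fatty acid-binding protein Fabp2 (12.55, against 10.95 to 12.32) were also at their highest in that mouse.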
